A study of Homo sapiens with 10 samples.

Results

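EphA receptors and ephrin-A ligands were compared between ROBO1-positive and ROBO1-negative cells of SW480, an established human colorectal adenocarcinoma line. The set holds the receptor genes EPHA1, EPHA2, EPHA3, EPHA4 and EPHA7 and the ligand genes EFNA1, EFNA2, EFNA3, EFNA4 and EFNA5, matched by gene symbol, which are 10 of the 26485 genes counted. Cells were flow-sorted with an antibody to the surface receptor ROBO1 and their polyadenylated RNA was sequenced in bulk, with 5 libraries of ROBO1pos cells (called SW480-CBC in the labels) and 5 of ROBO1neg cells (SW480-RSC). Both populations came from the same wild-type line, grown in DMEM with fetal bovine serum. No label states that replicates come from separate cultures; p-values therefore reflect library-to-library spread, part or all of which may be technical.

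Eph receptors are receptor tyrosine kinases that are activated by ephrins on the surface of neighbouring cells. The A class of receptors mainly binds ephrin-A ligands, which are held in the membrane by a glycosylphosphatidylinositol anchor, and contact between the partners usually drives repulsion, boundary formation and changes in cell adhesion through small GTPases. EPHA2 is the best studied A class receptor of epithelial tumours: bound by ephrin-A1 it restrains growth and migration, whereas without ligand it can be phosphorylated on serine by AKT and RSK kinases and favour migration.

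Libraries held between 23228686 and 29539100 reads on genes, and a level of 1 CPM (counts scaled to a common library size) stood for 23.04 to 29.3 counts. ROBO1 itself was at 430 CPM in ROBO1pos and 7.25 CPM in ROBO1neg, which checks the sort labels. Of 11 colorectal epithelial markers 8 reached 1 CPM in a population, and they summed to 5782 to 7042 CPM in ROBO1pos and 7981 to 10495 CPM in ROBO1neg, mostly KRT8 and KRT18. CDX1 and GPA33 stayed below 1 CPM and KRT20 had 0 counts, while VIL1 was at 503 CPM in ROBO1pos and 27.7 CPM in ROBO1neg and CDH17 at 6.94 CPM in ROBO1pos and 0.127 CPM in ROBO1neg. Summed levels of 7 immune markers were 4.33 to 5.42 CPM in ROBO1pos and 4.80 to 5.94 CPM in ROBO1neg, with PTPRC and CD3E below 1 CPM, and 3 of the 7 reached 1 CPM in a population. The 5 endothelial markers summed to 0.504 to 0.889 CPM in ROBO1pos and 2.43 to 4.36 CPM in ROBO1neg, where VWF alone passed 1 CPM. The 7 fibroblast markers summed to 10.3 to 14.05 CPM in ROBO1pos and 13.99 to 22.6 CPM in ROBO1neg, with 4 at 1 CPM or more and COL3A1 at 0. These 4 went both ways. LUM was at 3.73 CPM in ROBO1pos and 0.0309 CPM in ROBO1neg, and COL1A2 at 1.97 and 0.353 CPM. COL1A1 was at 4.87 CPM in ROBO1pos and 14.3 CPM in ROBO1neg, and PDGFRB at 1.15 and 2.94 CPM. The 5 neural and glial markers summed to 27.8 to 35.4 CPM in ROBO1pos and 10.4 to 14.8 CPM in ROBO1neg, nearly all SYP, with SOX10 and GFAP at 0. Their part in the results was not tested.

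EFNA4, EFNA3 and EFNA1 lie side by side on chromosome 1 within 71.1 kb, yet behaved differently, and EFNA5 went the other way. The 250 bases before the RefSeq start of each of these genes (GRCh38.p14) are printed because they set the gene that did not pass the test, EFNA4, beside its called neighbours EFNA3 and EFNA1 and the ligand called in the other direction, EFNA5. They are read 5′ to 3′ on the strand of the gene, with matches to the GC box in capitals, and lie at chr1:155063490-155063739 on the plus strand for EFNA4, at chr1:155078587-155078836 on the plus strand for EFNA3, at chr1:155127626-155127875 on the plus strand for EFNA1 and at chr5:107670938-107671187 on the minus strand for EFNA5.
EFNA4: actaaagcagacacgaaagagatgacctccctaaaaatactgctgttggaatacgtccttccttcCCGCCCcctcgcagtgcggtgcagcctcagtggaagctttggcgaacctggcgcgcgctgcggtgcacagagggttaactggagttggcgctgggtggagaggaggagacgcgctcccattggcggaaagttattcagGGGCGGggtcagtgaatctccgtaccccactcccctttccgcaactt
EFNA3: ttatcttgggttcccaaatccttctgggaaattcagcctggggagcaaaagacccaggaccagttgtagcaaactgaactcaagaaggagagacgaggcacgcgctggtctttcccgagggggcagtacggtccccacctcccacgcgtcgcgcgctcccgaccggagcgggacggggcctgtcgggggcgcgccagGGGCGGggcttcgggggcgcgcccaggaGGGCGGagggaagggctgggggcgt
EFNA1: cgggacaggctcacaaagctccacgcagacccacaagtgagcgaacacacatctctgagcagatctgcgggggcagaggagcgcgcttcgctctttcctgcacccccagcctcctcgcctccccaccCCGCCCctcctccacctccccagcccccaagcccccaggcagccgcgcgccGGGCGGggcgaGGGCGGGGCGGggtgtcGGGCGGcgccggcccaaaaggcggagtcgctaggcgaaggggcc
EFNA5: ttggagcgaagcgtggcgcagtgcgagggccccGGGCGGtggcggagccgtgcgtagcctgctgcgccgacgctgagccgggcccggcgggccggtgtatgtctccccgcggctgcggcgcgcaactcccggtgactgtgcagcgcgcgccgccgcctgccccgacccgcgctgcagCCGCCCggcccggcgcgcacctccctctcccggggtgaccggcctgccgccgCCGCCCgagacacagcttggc
Searched on both strands, the GC box (GGGCGG) matched 2 times before EFNA4, 2 times before EFNA3, 5 times before EFNA1 and 3 times before EFNA5, with overlapping matches counted, against at least 1 match in 42.6% of the 35116 promoters in the RefSeq table. The TCF/LEF letters (CTTTGAA or its variants CTTTGAT, then CTTTGTA, and also CTTTGTT, found in 4199 promoters), the TEAD letters (GGAATG, 11.9%) and the AP-1 letters (TGANTCA, 6.57%) were not in these 4 windows. Among the windows before all 10 genes, 1 TEAD match was found, before EPHA2. GC content was 58.4% before EFNA4, 67.6% before EFNA3, 73.2% before EFNA1 and 79.6% before EFNA5, against a median of 58.0% for all promoters. Matches describe these letters only.

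Of the 10 genes, 8 had enough counts to be tested, and 6 of these differed between the populations: EPHA1, EFNA1 and EFNA3 were higher in ROBO1pos, and EPHA2, EPHA4 and EFNA5 were higher in ROBO1neg. EFNA2 and EFNA4 did not pass the test, and EPHA3 and EPHA7 were too low to test. Calls are edgeR quasi-likelihood tests with Benjamini-Hochberg adjustment over all 14932 genes tested, at an adjusted p under 0.05. Differences were common in these cells: 82.0% of all tested genes passed, 41.6% as higher in ROBO1pos and 40.4% as higher in ROBO1neg. The family's share of 75.0%, with 37.5% in each direction, was therefore close to the background and is not a result about the family. The same holds for genes whose libraries did not overlap between populations, 6 of 8 (75.0%) against 71.9% of all genes, and for sizes: 3 of 8 (37.5%) exceeded a 1.5-fold difference by edgeR's glmTreat against 41.8%, and 2 of 8 (25.0%) were called and at least 2-fold apart against 30.3%. The median log2 fold change (ROBO1pos minus ROBO1neg) was -0.15 over the 8 genes and 0.019 over all genes, and the median absolute value 0.54 and 0.58. In bulk RNA, fewer cells that express a gene and less of its RNA per cell cannot be told apart.

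**Figure D1:**
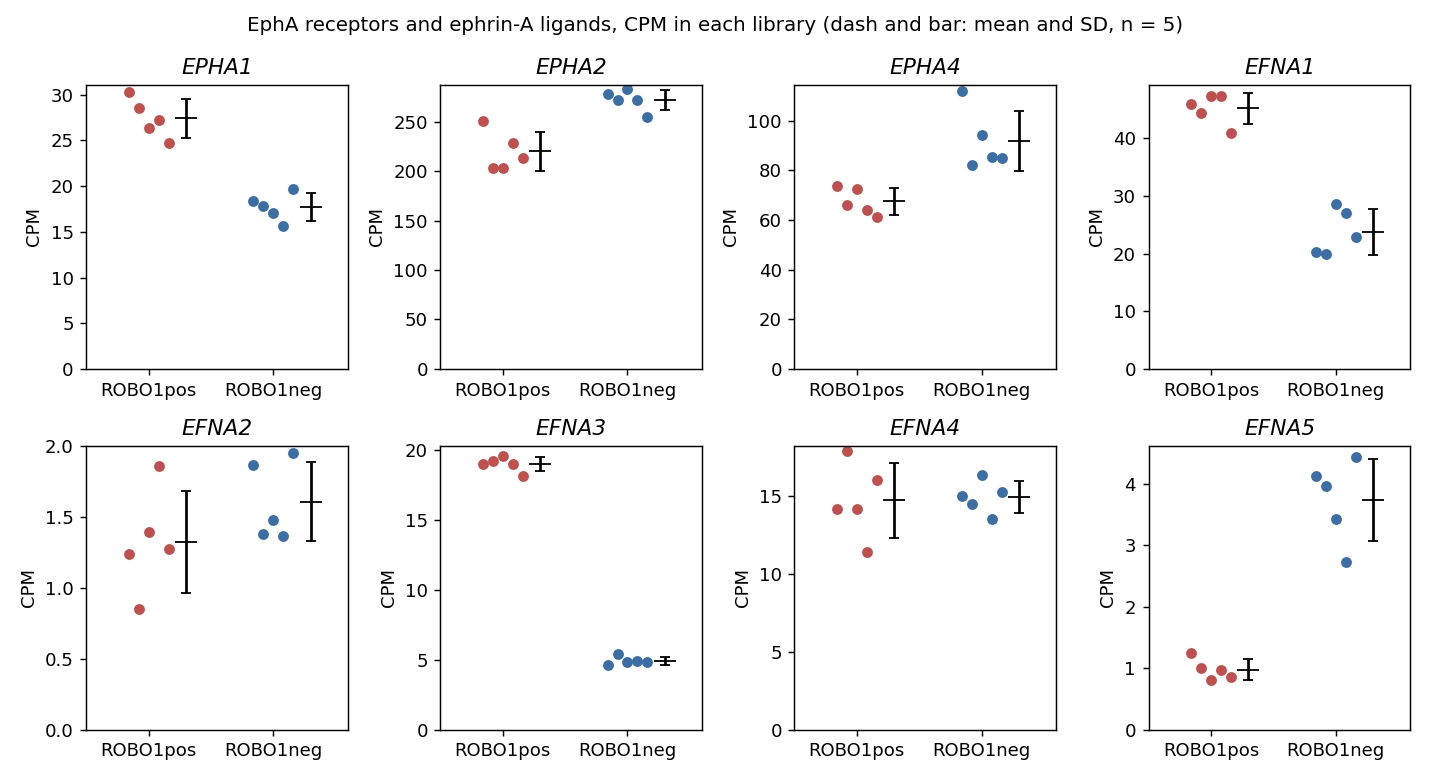
Normalised level in CPM (linear axes from 0) of the 8 tested genes in each library, with ROBO1pos in red at the left and ROBO1neg in blue at the right of each panel, and a dash with bar for the mean and SD of 5 libraries. EFNA3 lay between 18.1 and 19.5 CPM in ROBO1pos and between 4.59 and 5.38 CPM in ROBO1neg, while EFNA4 and EFNA2 overlapped between the populations.

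Among the receptors, EPHA2, the main EphA receptor of epithelial cells, had the most counts. It was at 251, 204, 203, 229 and 213 CPM in the ROBO1pos libraries, against 278, 272, 283, 272 and 255 CPM in the ROBO1neg libraries. All ROBO1pos values lay below all ROBO1neg values, but the nearest were only 251 and 255 CPM. EPHA2 averaged 219.9 ± 20.1 CPM in ROBO1pos and 272 ± 10.6 CPM in ROBO1neg (SD, n = 5 each), and differed by -0.31 on the log2 scale (SE 0.06, edgeR adjusted p = 0.00021). The difference was small, 1.236-fold higher in ROBO1neg, and did not exceed 1.5-fold (glmTreat adjusted p = 1).

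EPHA4, a receptor that binds ephrin-B as well as ephrin-A ligands, was also higher in ROBO1neg. Its levels were 73.5, 65.9, 72.5, 64.2 and 61.2 CPM in ROBO1pos and 112, 82.2, 94.3, 85.2 and 84.8 CPM in ROBO1neg. The populations did not overlap, and 1 ROBO1neg library, replicate 1, stood above the other 4. Means were 67.5 ± 5.32 CPM in ROBO1pos and 91.7 ± 12.2 CPM in ROBO1neg, with a log2 difference of -0.44 (SE 0.08, edgeR adjusted p = 0.00018), and the call held without any 1 library (log2 fold change -0.48 to -0.36). Within EPHA4 lies an antisense gene, AC079834.2, that shares 353 exon bases with it in GENCODE 29. The kit marks strand, but how strand was treated in counting is not stated in what was used here.

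EPHA1, the first Eph receptor to be cloned, went the other way. Its levels were 30.3, 28.5, 26.3, 27.3 and 24.7 CPM in ROBO1pos, against 18.4, 17.8, 17.1, 15.6 and 19.7 CPM in ROBO1neg, so that every ROBO1pos library was higher. EPHA1 averaged 27.4 ± 2.12 CPM in ROBO1pos and 17.7 ± 1.52 CPM in ROBO1neg, which is 1.55-fold (a log2 difference of 0.63, SE 0.07; edgeR adjusted p = 1.9e-06). Against a minimum of 1.5-fold it did not pass (glmTreat adjusted p = 0.231). EPHA1 overlaps ZYX, the gene of the adhesion protein zyxin, by 82 exon bases on the opposite strand, and ZYX was higher in ROBO1neg (log2 fold change -1.88).

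EPHA3 had 7, 6, 4, 1 and 1 counts in the ROBO1pos libraries, against 0 counts in every ROBO1neg library. Pooled over the ROBO1pos libraries, EPHA3 was at 0.149 CPM, which is 6.29 times the 0.0237 CPM that 3 counts over all ROBO1neg libraries would give. This ratio is no lower bound, because the few ROBO1pos counts carry an error of their own. EPHA3 was below the filter on low counts and was not tested. EPHA7 had 0 counts in all 10 libraries, which allows up to 0.0235 CPM over the ROBO1pos libraries and 0.0237 CPM over the ROBO1neg libraries. These limits cover counting error only.

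Among the ligands, EFNA3 differed most in favour of ROBO1pos. It was at 19.0, 19.2, 19.5, 19.0 and 18.1 CPM in ROBO1pos, against 4.59, 5.38, 4.86, 4.91 and 4.80 CPM in ROBO1neg. Both populations were tight and far apart, with 441 to 517 counts per ROBO1pos library and 108 to 144 per ROBO1neg library. Means were 19.0 ± 0.517 CPM in ROBO1pos and 4.91 ± 0.293 CPM in ROBO1neg, which is 3.86-fold (a log2 difference of 1.95, SE 0.07; edgeR adjusted p = 5.5e-12).

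EFNA1, the ligand most often paired with EPHA2 and originally found as a TNF-induced gene of endothelial cells, was also higher in ROBO1pos. It was at 46.0, 44.4, 47.3, 47.4 and 40.9 CPM in ROBO1pos, against 20.3, 19.9, 28.7, 27.0 and 22.9 CPM in ROBO1neg. No ROBO1neg library came near the ROBO1pos range, although ROBO1neg libraries varied more. Means were 45.2 ± 2.68 CPM in ROBO1pos and 23.8 ± 3.94 CPM in ROBO1neg, with a log2 difference of 0.93 (SE 0.09, edgeR adjusted p = 4.6e-07).

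EFNA5, which also binds the receptor EPHB2 and is known as a repellent cue for retinal axons, was the ligand higher in ROBO1neg, at low levels in both populations. It was at 1.238, 1.00, 0.814, 0.970 and 0.863 CPM in ROBO1pos, against 4.12, 3.96, 3.43, 2.73 and 4.44 CPM in ROBO1neg. The lowest ROBO1neg library was more than the highest ROBO1pos library, on 21 to 32 counts per ROBO1pos library and 79 to 123 per ROBO1neg library. Means were 0.977 ± 0.165 CPM in ROBO1pos and 3.74 ± 0.670 CPM in ROBO1neg, so that it was 3.80-fold higher in ROBO1neg (a log2 difference of -1.93, SE 0.17; edgeR adjusted p = 1.2e-07).

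EFNA4 and EFNA2 did not pass. EFNA4 was at 14.2, 17.9, 14.2, 11.4 and 16.02 CPM in ROBO1pos, against 15.0, 14.5, 16.4, 13.5 and 15.3 CPM in ROBO1neg. The ROBO1pos libraries spread on both sides of the ROBO1neg ones, with means of 14.8 ± 2.42 CPM in ROBO1pos and 14.9 ± 1.03 CPM in ROBO1neg and a log2 fold change of -0.016 (95% interval -0.24 to 0.21, edgeR adjusted p = 0.892). EFNA2 was at 1.238, 0.852, 1.39, 1.86 and 1.27 CPM in ROBO1pos, against 1.87, 1.38, 1.48, 1.36 and 1.95 CPM in ROBO1neg. With 23 to 54 counts per library its interval was wider, at -0.72 to 0.15 around a log2 fold change of -0.28 (edgeR adjusted p = 0.208). These intervals do not show that either ligand was equal in the populations.

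The ligand genes on chromosome 1 were set beside their neighbours. In GENCODE 29 (GRCh38), EFNA4 lies at chr1:155063731-155069553, EFNA3 at chr1:155078872-155087538 and EFNA1 at chr1:155127460-155134857, all on the plus strand. The gene tested before EFNA4 is ADAM15, a membrane metalloprotease, which did not pass (log2 fold change -0.08), and the gene after EFNA1 is SLC50A1, a sugar transporter, which was higher in ROBO1neg (-0.34). The 20 nearest tested genes on each side of EFNA3, with EFNA4 and EFNA1 among them, had a median log2 fold change of 0.029. Of these, 14 of 40 were higher in ROBO1pos and 12 of 40 higher in ROBO1neg, against 41.6% and 40.4% of all tested genes. Within a library the number of EFNA3 reads per EFNA4 read, which no scaling of library size can change, was 1.07 to 1.66 in ROBO1pos and 0.297 to 0.371 in ROBO1neg, and that of EFNA1 reads per EFNA4 read 2.48 to 4.14 in ROBO1pos and 1.35 to 1.99 in ROBO1neg. A readthrough gene that joins EFNA4 and EFNA3 (AL691442.1 in GENCODE 29) shares 853 exon bases with EFNA3 and 189 with EFNA4. It contains 42.2% of the 50-base words of EFNA3 transcripts and 10.7% of those of EFNA4, so reads from such a transcript could not be told apart from those of the separate genes.

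**Figure D2:**
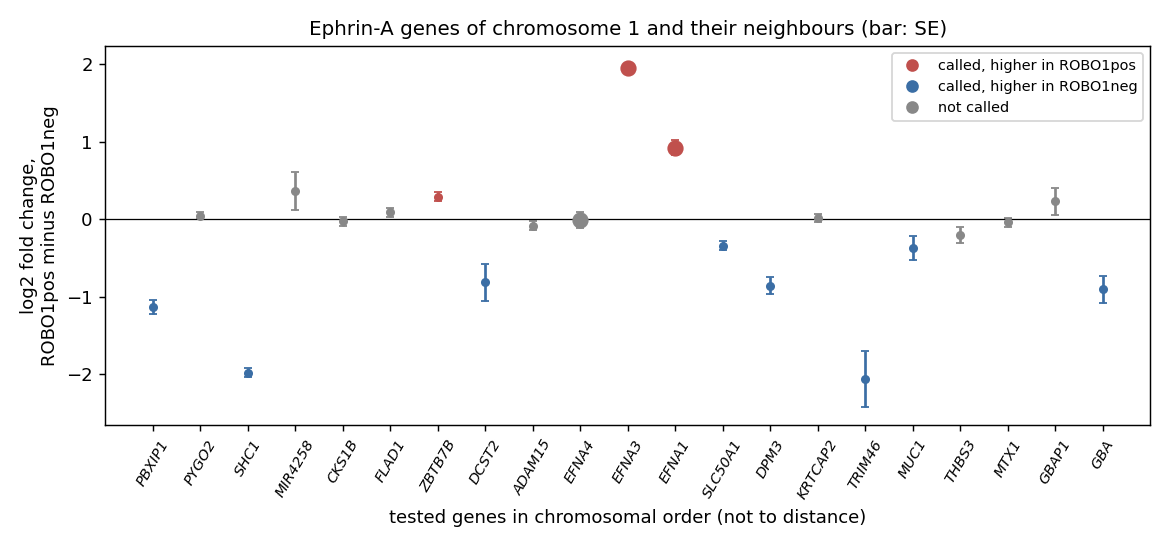
Log2 fold change (ROBO1pos minus ROBO1neg) with SE of the 21 tested genes around EFNA3 in chromosomal order, not to distance, with the 3 ephrin-A genes as large points, red for called and higher in ROBO1pos, blue for called and higher in ROBO1neg and grey for not called. EFNA3 at 1.95 and EFNA1 at 0.93 stand above EFNA4 and the 18 other genes, of which the highest, MIR4258 at 0.36, was not called. Some of the other genes lie well below 0, with SHC1 at -1.98 among them.

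The neighbours of EPHA2, EPHA4, EFNA2 and EFNA5 had medians further from 0. For their counts, the shares over all tested genes were 41.6% higher in ROBO1pos and 40.4% higher in ROBO1neg. EPHA2 (chr1:16124337-16156087, minus strand) was lower in ROBO1pos although 28 of its 40 nearest tested genes were higher there and 5 were higher in ROBO1neg, with a median log2 fold change of 0.65. Relative to that median, EPHA2 was at -0.95. EPHA4 (chr2:221418027-221574202, minus strand) has neighbours with a median of -0.63, of which 26 of 40 were higher in ROBO1neg, and relative to them it changed sign, to 0.18. EFNA2 (chr19:1286154-1300237, plus strand), near the end of chromosome 19, has 38 of 40 neighbours higher in ROBO1neg and a median of -1.04, so that its own -0.28 changed sign relative to them, to 0.76. EFNA5 (chr5:107376889-107670895, minus strand) was at -2.29 relative to a median of 0.37, and EPHA1 (chr7:143390289-143408892, minus strand) at 0.63 relative to -0.0014. Whether the neighbours' shift has a part in a member's value was not tested.

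**Figure D3:**
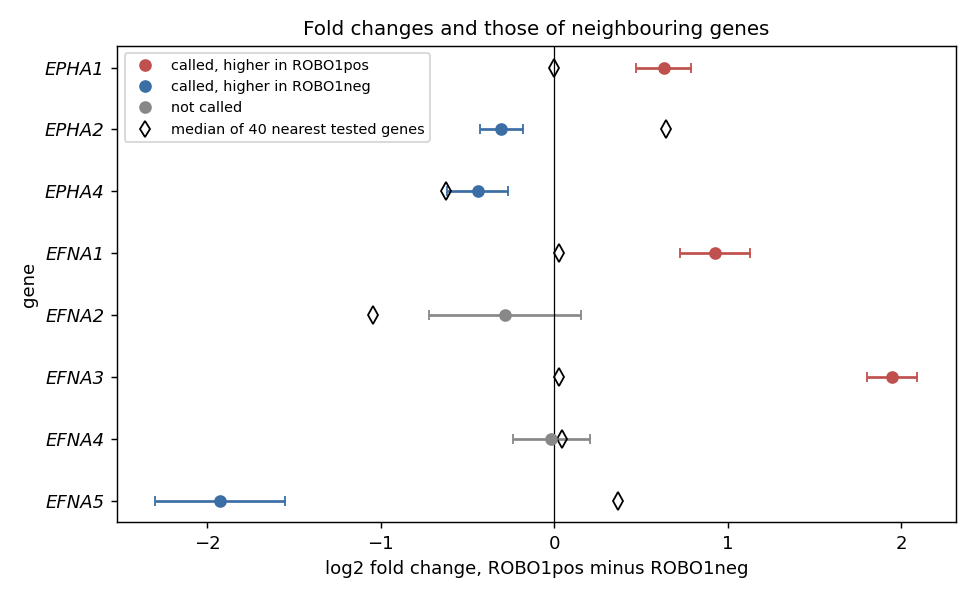
Log2 fold change (ROBO1pos minus ROBO1neg) with its 95% interval for the 8 tested genes (filled points, coloured by call) and the median of the 40 nearest tested genes on the chromosome (open diamonds). EPHA2 at -0.31 and EFNA5 at -1.93 lie left of their neighbours' medians of 0.65 and 0.37, EPHA4 at -0.44 lies close to its neighbours' -0.63, and EFNA1 and EFNA3 have neighbours near 0.

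Levels of different genes were set side by side after division by the length of each gene's exons (CPM per kb, GENCODE 29). EPHA2 dominated the receptors in both populations. It held 75.3% ± 1.48 of the summed level of the 9 EphA receptor genes in ROBO1pos and 78.2% ± 1.35 in ROBO1neg (SD, n = 5 each), followed by EPHA4 with 12.8% ± 1.05 in ROBO1pos and 14.5% ± 1.42 in ROBO1neg. EPHA1 held 8.28% ± 0.516 in ROBO1pos and 4.49% ± 0.487 in ROBO1neg. The order EPHA2, EPHA4, EPHA1 was the same in both populations, and their ranges did not overlap within either. The rest was EPHA10, EPHA8 and traces of EPHA3, EPHA5 and EPHA6.

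The ligands were shared more evenly and their make-up differed between the populations. In ROBO1pos, EFNA1 was highest at 17.8 ± 1.06 CPM per kb, followed by EFNA4 at 11.7 ± 1.91 and EFNA3 at 9.93 ± 0.271, of which the last pair overlapped in range. In ROBO1neg, EFNA4 at 11.8 ± 0.817 and EFNA1 at 9.36 ± 1.55 CPM per kb overlapped in range, and EFNA3 was at 2.57 ± 0.153. EFNA2 and EFNA5 were lowest in both, at 1.39 ± 0.381 and 0.171 ± 0.0289 CPM per kb in ROBO1pos, against 1.69 ± 0.295 and 0.655 ± 0.117 in ROBO1neg. EFNA3 thus made up 24.2% ± 0.590 of the ephrin-A level in ROBO1pos and 9.89% ± 1.05 in ROBO1neg, and EFNA4 28.5% ± 4.17 in ROBO1pos and 45.4% ± 2.46 in ROBO1neg.

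Summed over genes, ephrin-A ligands were at 39.8 to 42.8 CPM per kb in the ROBO1pos libraries and at 24.3 to 28.96 in the ROBO1neg libraries, whereas EphA receptors were at 66.0 to 78.8 in ROBO1pos and at 79.0 to 87.7 in ROBO1neg. The ephrin-A level per EphA level in a library, which is free of scaling, was 0.588 ± 0.0530 (0.518 to 0.649) in ROBO1pos and 0.313 ± 0.0227 (0.285 to 0.335) in ROBO1neg. The ligand ranges were apart under all 3 scalings and both choices of gene length, but the receptor ranges touched when library size alone was used (up to 79.4 in ROBO1pos, from 78.6 in ROBO1neg) or when the longest coding transcript gave the length (up to 87.2 in ROBO1pos, from 86.9 in ROBO1neg). These sums are descriptions and carry no test.

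**Figure D4:**
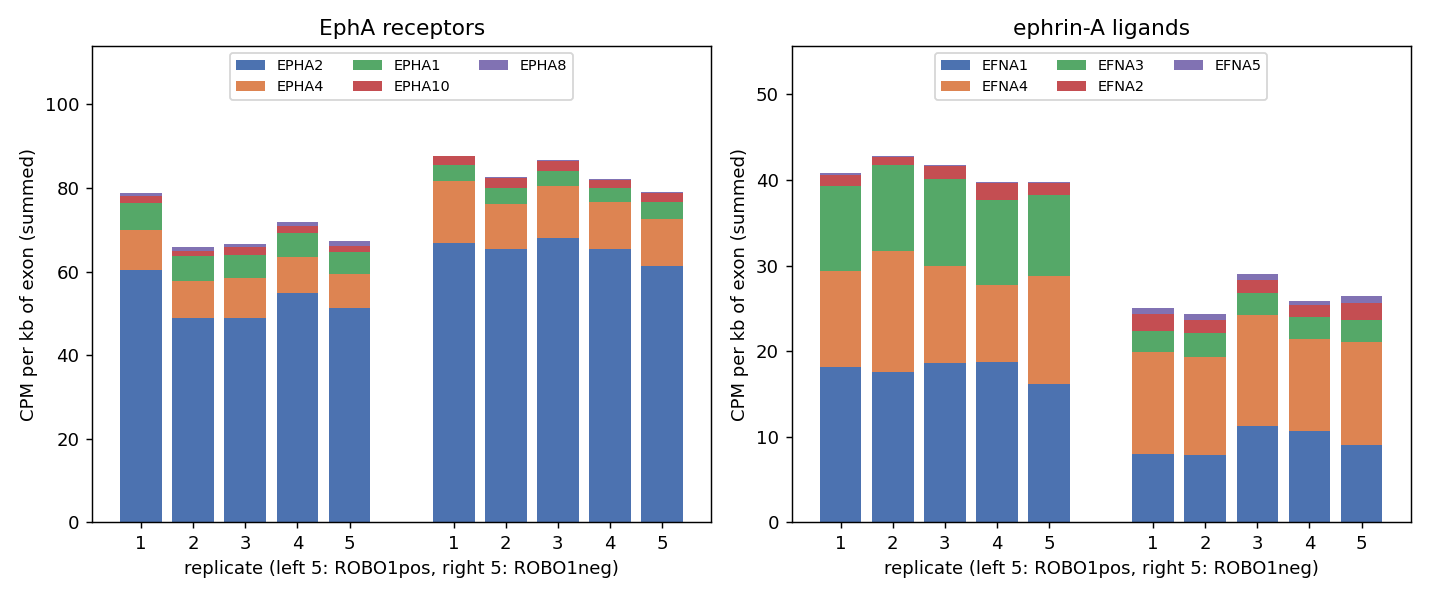
Summed CPM per kb of exon of the EphA receptor genes (left panel) and the ephrin-A ligand genes (right panel) in each library, stacked by gene on linear axes from 0, with the 5 ROBO1pos libraries at the left and the 5 ROBO1neg libraries at the right of each panel. EPHA3, EPHA5, EPHA6 and EPHA7 are left out as they would not be visible. EPHA2 forms most of every receptor bar, and the ligand bars reach 39.8 to 42.8 in ROBO1pos and 24.3 to 28.96 in ROBO1neg.

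Receptors of the same class outside the set were examined with other genes of Eph signalling, as 66 genes in 9 roles. Of the 59 tested, 19 were higher in ROBO1pos (32.2%, against 41.6% of all genes) and 33 were higher in ROBO1neg (55.9%, against 40.4%), with a median log2 fold change of -0.30. These counts include VAV3 and MMP2, whose directions were fixed by the filter on low counts. EPHA8 was at 3.99 to 6.57 CPM in ROBO1pos and 0.361 to 1.09 CPM in ROBO1neg, which is 2.92 on the log2 scale (SE 0.23). It had only 10 to 25 counts per ROBO1neg library and passed the filter through its ROBO1pos libraries. Its fold change is therefore not ranked against those of the set. EPHA10, whose kinase domain is thought to be inactive, was higher in ROBO1neg, at 12.8 ± 1.52 CPM in ROBO1pos and 18.1 ± 1.40 CPM in ROBO1neg. EPHA5 and EPHA6 had 1 count each in ROBO1pos and 0 in ROBO1neg.

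EphB receptors and ephrin-B ligands divided evenly, with 3 of 8 higher in each direction (37.5%, against 41.6% and 40.4% of all genes). The lists by role are short, and shares called in them are not results about a role. EFNB1 was at 23.2 ± 5.28 CPM in ROBO1pos and 327 ± 36.3 CPM in ROBO1neg (-3.82 on the log2 scale), and EFNB3 was also higher in ROBO1neg (-1.01). EFNB2 was higher in ROBO1pos, at 22.7 ± 2.82 CPM against 7.91 ± 0.315 CPM in ROBO1neg, as was EPHB6, a receptor without kinase activity (0.96). Overlap of roles between the classes is known for EPHA4 and EFNA5, but no test of such binding is part of these data.

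Exchange factors and GTPase-activating proteins, which carry Eph signals to small GTPases, had 6 of 12 tested genes higher in ROBO1pos and 4 higher in ROBO1neg. The shares over all tested genes were 41.6% and 40.4%. VAV3, a guanine nucleotide exchange factor, was at 3.90 to 14.8 CPM in ROBO1pos and at 0 to 0.102 CPM in ROBO1neg. With only 6 counts over the ROBO1neg libraries, it passed the filter by its ROBO1pos counts alone, so that its direction was fixed by the filter. VAV3 is nevertheless counted among the genes of this role higher in ROBO1pos. CHN2, a Rac-inactivating chimaerin, was at 33.5 ± 10.4 CPM in ROBO1pos and 2.72 ± 1.15 CPM in ROBO1neg. DOCK4 and TIAM1, both activators of Rac, were higher in ROBO1neg, with log2 fold changes of -2.06 and -1.40.

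Of 11 tested adaptors and endocytic partners, 3 were higher in ROBO1pos (27.3%, against 41.6% of all genes) and 8 in ROBO1neg (72.7%, against 40.4%). SHC1, an adaptor of receptor tyrosine kinases that lies close to the ephrin-A genes on chromosome 1, was at 45.7 ± 4.05 CPM in ROBO1pos and 180.4 ± 9.44 CPM in ROBO1neg. NCK1, an adaptor to the actin machinery, was higher in ROBO1neg as well (log2 fold change -1.05), while GRB7 (0.88) and ANKS1A, an adaptor that binds Eph receptors (0.66), were higher in ROBO1pos. Among the kinases 3 of 8 were higher in ROBO1pos (37.5%, against 41.6%) and 5 of 8 in ROBO1neg (62.5%, against 40.4%). PTK2, the focal adhesion kinase (0.96), and ABL1 (0.18) were higher in ROBO1pos, and SRC (-1.28) and LYN (-0.49) in ROBO1neg. AKT1 and RPS6KA1, whose kinase families phosphorylate EPHA2 on serine, were both among the genes higher in ROBO1neg, at -0.42 and -0.48. These small differences of RNA were picked after they were seen, and phosphorylation of EPHA2 was not measured.

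Phosphatases had 2 of 4 tested genes higher in ROBO1pos, ACP1 (0.71) and PTPRF (0.38), and 1 higher in ROBO1neg, PTPN1 (-0.87). Over all tested genes, 41.6% were higher in ROBO1pos and 40.4% higher in ROBO1neg. All 3 tested proteases were higher in ROBO1neg, against 40.4% of all genes. MMP2, the third, had 17 counts over the ROBO1pos libraries and 365 over the ROBO1neg libraries. It passed the filter by its ROBO1neg counts alone, so that its direction was fixed by the filter. MMP14, a membrane metalloprotease that can cleave EPHA2, was at 4.02 ± 0.549 CPM in ROBO1pos and 101 ± 5.90 CPM in ROBO1neg, and ADAM10, which sheds ephrin-A ligands, differed less (log2 fold change -0.40). All 3 membrane partners were higher in ROBO1neg as well, again beside 40.4% of all genes. CAV1, the caveolae protein caveolin 1, was at 2.55 ± 1.27 CPM in ROBO1pos against 35.9 ± 13.1 CPM in ROBO1neg. CLDN4, a tight junction claudin, was at 125 ± 14.9 CPM in ROBO1pos against 222 ± 19.99 CPM in ROBO1neg. CDH1 differed less (log2 fold change -0.38), and its libraries overlapped between the populations. With a median absolute log2 fold change of 0.65 over the 59 genes and 0.58 over all genes, nothing is particular to the list in size.

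**Figure D5:**
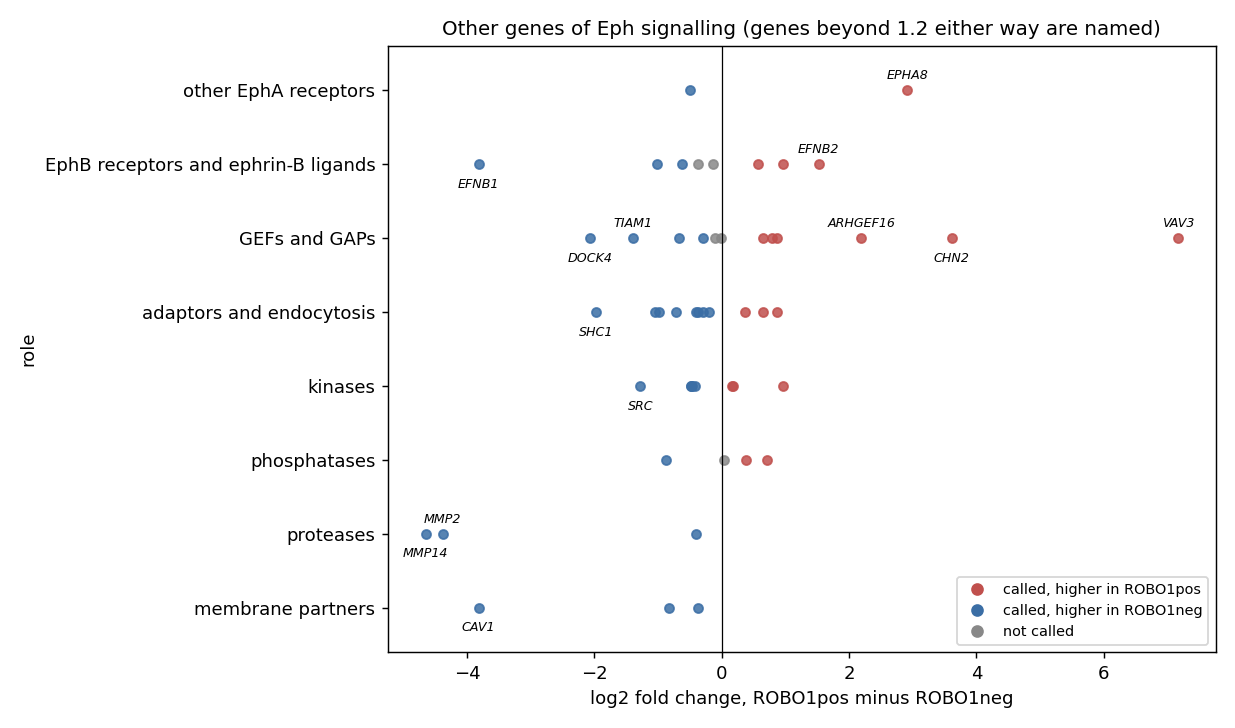
Log2 fold change (ROBO1pos minus ROBO1neg) of tested genes of Eph signalling outside the set, with a point per gene in 8 rows by role, red for called and higher in ROBO1pos, blue for called and higher in ROBO1neg and grey for not called. Points run from -4.65 for MMP14 to 7.16 for VAV3, which had only 6 counts over the ROBO1neg libraries. All points in the rows of proteases and membrane partners lie left of 0, among them MMP2, whose direction was fixed by the filter.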

How the data were processed

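Each library has 1 deposited file with a whole-number read count per gene symbol and no normalisation by the authors. Per the labels' protocols, polyadenylated RNA went into a stranded library kit. STAR 2.6.0c, SAMtools 1.9 and DESeq2 1.24.0 with GRCh38 are named per the submitters' processing notes. How reads were assigned to genes, with which annotation and strand setting, is not given in the sources used. The 5 summary entries of each file were kept out of library sizes and tests (means of 15.8% of listed reads without a feature in ROBO1pos and 14.6% in ROBO1neg, and 24.6% aligned to several places in ROBO1pos and 21.2% in ROBO1neg).

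Counts were analysed in R 4.3.3 with edgeR 4.0.16 (filterByExpr, TMM scaling, quasi-likelihood test with group as the only term, Benjamini-Hochberg adjustment over 14932 genes), which was tested on simulated data. Standard errors come from the coefficient and its F statistic. CPM uses TMM-scaled library sizes. Members and lists were chosen with earlier results of these data known. Of each role, up to 2 called genes per direction with the largest fold change, 5 CPM or more in the higher population, and no overlap of libraries were named. Neighbours that overlap a member or flank it were named too, and AKT1, RPS6KA1, EPHA5, EPHA6, CDH1 and MIR4258 were added after their values were seen. The ninth role of the signalling list is counted in its totals but not reported here on its own. Positions came from GENCODE 29 for 13972 tested genes and from RefSeq names for 662, which left 298 without one. Pairs of libraries within a population varied 3.55 to 21.95 times as much as sampling alone would give, so none was the same library deposited again; separate preparations of 1 RNA are not told apart by this. Alternatives used limma 3.58.1 and DESeq2 1.42.0.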

Additional observations from a re-analysis of the deposited data

Results flagged for a closer look

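None of the 18 sets of 5 libraries examined for the genes of the family (9 genes with any count, 2 populations) held a library far from the others. Among the 74 sets examined, which include the named signalling genes, 2 did, and chance flags about 1 set in 20. EFNB1 was at 32.4 CPM in ROBO1pos replicate 5, against 18.8 to 21.7 CPM in the other ROBO1pos libraries, a gap of 0.785 of the whole range, where the limit for 5 libraries is 0.71. MMP14 was at 4.97 CPM in the same library and at 3.59 to 3.99 CPM in the other ROBO1pos libraries, a gap of 0.713 of the range.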

How the results depend on the processing

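Over 18 refits (other scalings, filters, tools, a block and each library left out), 3 genes of the family stayed higher in ROBO1pos and 3 higher in ROBO1neg, with 3 exceptions. No filter beyond 1 count gave 4 and 3, through EPHA3, which enters by its ROBO1pos counts alone, so that its direction was fixed by the filter. The filter of 5 CPM in 5 libraries left EFNA5 and EFNA2 untested and gave 3 and 2. The test against 1.5-fold gave 2 and 1, ending the calls of EPHA1, EPHA2 and EPHA4, and called 12 signalling genes as higher in ROBO1pos, 16 as higher in ROBO1neg and 6236 of all genes. Without 1 library 19 signalling genes were higher in ROBO1pos each time and 33 to 36 in ROBO1neg, 12110 to 12354 of all genes were called, and no fold of the family moved by more than 1.11 times. EFNA4, which was not called, changed sign with library size alone (log2 fold change 0.0053), without ROBO1pos replicate 4 (0.060) and without ROBO1neg replicate 3 (0.015), and ranged from -0.099 to 0.060. With the median of its neighbours removed, EPHA4 changed sign, to 0.18, as did EFNA2, which was not called, to 0.76, and EPHA2 moved to -0.95, EFNA5 to -2.29. The cause was not tested. Same-numbered libraries deviated together weakly, but in the same direction for every number (correlations of 0.062 to 0.169, 3 of 5 above 0.1). Of the libraries, 5 of 5 ROBO1pos and 3 of 5 ROBO1neg correlated best with their own number. This is a hint of a shared effect from the data only. No label says that a number marks a shared culture or day, so the numbers were not taken as pairs in the main test. With the replicate block the calls of the family were 3 and 3, and 12312 of all genes were called. Gene lengths from the longest coding transcript, chosen after seeing the data, put EFNA1 above EFNA4 in ROBO1neg, at 41.9% against 40.4% of the ephrin-A level. Counts of 21 to 54 per library limit EFNA5 in ROBO1pos and EFNA2.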
